A study of Homo sapiens with 6 samples.

Results

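Long intergenic non-coding RNAs of the LINC series were compared between A375 cells, an established human melanoma line, and A375 cells that overexpress CYGB, the gene of the haem protein cytoglobin. The members are the rows of the deposited count table whose gene name is LINC followed by digits only, and the rule uses no measured value. It found 80 of the 2778 features of the table. Wildtype cells (WT, 3 libraries) were set against CYGB-overexpressing cells (CYGB-OE, 3 libraries), with both groups untreated and kept in the same serum-containing medium. The labels name no empty-vector control and do not say how CYGB was introduced, whether the CYGB-OE cells are 1 clone, or whether replicates were grown as separate cultures. P-values therefore cover only the spread among the libraries at hand, and that spread may be technical.

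A LINC symbol is a placeholder given to a long non-coding RNA gene that has no functional name and that lies between protein-coding genes. Such RNAs are made by RNA polymerase II, and many are spliced and carry a poly(A) tail, so that oligo-dT capture recovers them. They are usually less abundant than messenger RNAs and more restricted to particular tissues or tumour types. Some act near their own locus and others elsewhere in the cell, and for most of them no function is known.

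Of the 80 LINC genes, 18 had a higher and 62 a lower mean level in CYGB-OE than in WT. The table as a whole leans the same way, with 29.3% of its features higher and 70.7% lower. It is a selection: no feature had a ratio of group means near 1, so genes that differed by less than about 2-fold between these libraries were not analysed here. The GENCODE 29 annotation names 1878 LINC genes, of which 78 are among the 80 members, and the rest of the 1878 were not analysed here. Since the table holds only features that differ between these libraries, a call below does not count as independent evidence. In bulk RNA, fewer cells of a type and less RNA per cell cannot be told apart.

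Counts over the table's features came to between 1533260 and 2801576 a library, which are sums over a selection and not library depths. Levels are given as normalized counts, which are counts divided by a scaling factor per library, set so that the gap in the table's fold changes is centred on no change. The CYGB gene had 33 to 47 counts in the WT libraries and 20740 to 26267 in those of CYGB-OE, which fits the labels. Replicate 1 of CYGB-OE differed from the others. Over the 60 LINC genes tested, the median absolute log2 difference was 0.71 to replicate 2 and 0.66 to replicate 3, where replicates 2 and 3 differed by 0.37 and pairs of WT libraries by 0.23 to 0.30. The median fold change, the calls and the replicate spread are given below with and without it. Of the markers chosen for a melanoma line, only DCT, a pigment enzyme, is in the table, 1 of 7, with 2, 13 and 15 counts in WT and 0 in each CYGB-OE library. Markers of other cell types were in the table for fibroblasts (1 of 6), immune cells (1 of 6), keratinocytes (1 of 5) and endothelium (2 of 5). The collagen COL1A2 had 0 to 4 counts in WT and 34 to 190 in CYGB-OE, and the keratin KRT14 13 to 26 and 57 to 62. The lysozyme LYZ had normalized counts of 51.3 ± 6.69 in WT and 289 ± 60.1 in CYGB-OE. The endothelial receptors KDR and TIE1 had 107 to 159 and 49 to 74 counts in WT, and 8 to 12 and 7 to 22 in CYGB-OE. The part of these markers in the LINC results was not tested, and the other markers were not analysed here.

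The LINC genes were scarce transcripts. Their mean normalized count over the 6 libraries ranged from 2.32 to 1806, with a median of 22.5, against 61.2 over all features, 112 over protein-coding genes and 40.0 over antisense RNAs named after a host gene. Per kilobase of annotated exon, the median mean normalized count was 11.4 for the LINC genes, 25.7 for protein-coding genes and 17.7 for the antisense RNAs. A mean normalized count under 50 was found for 58 of the 80, or 72.5%, against 46.1% of all features, and 4 exceeded 500. By level per kilobase of exon, LINC01239 came first at 686, followed by LINC02241 at 285, LINC00665 at 251 and LINC02015 at 188.

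**Figure D1:**
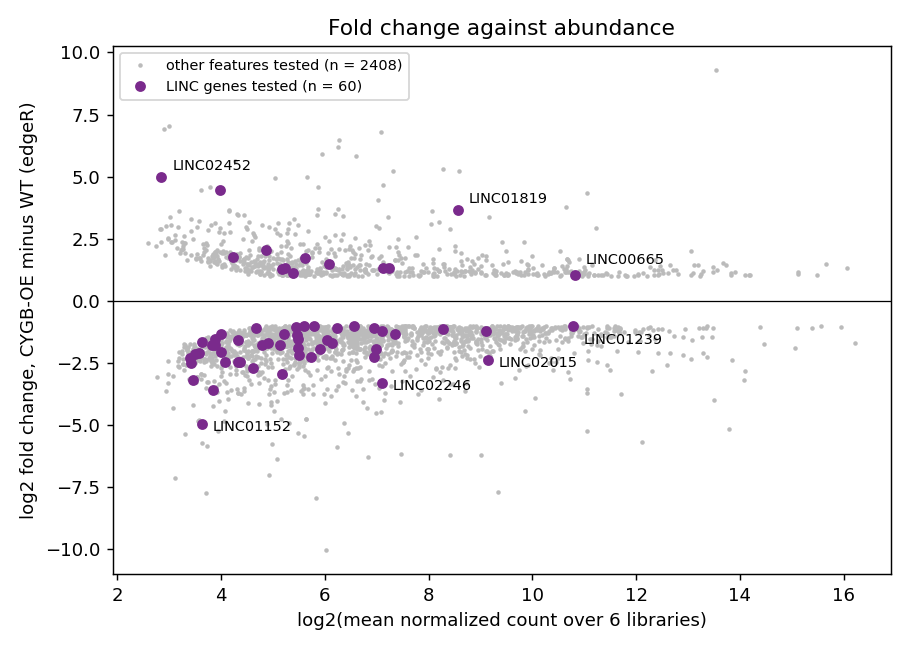
Fitted log2 fold change of CYGB-OE over WT (vertical axis) against the log2 mean normalized count over 6 libraries (horizontal axis); purple points are the 60 tested LINC genes and grey points the other 2408 tested features. The LINC genes crowd the left of the plot, and the strip without points on either side of zero is the gap left by the selection; with TMM scaling over the whole table the median of all points would lie 1.20 higher.

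Summed over the 80 members, LINC RNAs made up 0.410%, 0.418% and 0.428% of the table's counts in WT, and CYGB-OE had 0.355%, 0.419% and 0.412%, each in replicate order. The ranges of the groups overlap. Of normalized counts, the sum was 9286 ± 168 in WT and 6887 ± 437 in CYGB-OE (SD, n = 3 each), and its groups do not overlap, but with TMM scaling over the whole table the direction turned, to 6127 ± 164 in WT and 10437 ± 614 in CYGB-OE. The 62 lower members summed to 7736 ± 188 in WT and 2840 ± 358 in CYGB-OE, and the 18 higher members to 1550 ± 20.9 and 4047 ± 79.4. LINC00665 alone gave 12.7% ± 0.387 of the LINC sum in WT and 35.4% ± 1.19 in CYGB-OE. With LINC00665 and LINC01239 left out, the other 78 members summed to 5745 ± 99.2 in WT and 3291 ± 87.7 in CYGB-OE, and with TMM over the whole table to 3791 ± 113 and 4989 ± 130.

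Of the 80 members, 60 passed the filter on low counts and were tested with edgeR's quasi-likelihood test, with p adjusted by Benjamini-Hochberg over the 2468 tested features. A member of low level could pass it through the group in which it was high, so the tested genes are not a fair sample of the 80. At an adjusted p under 0.05, 13 were called higher and 47 lower, beside 28.9% of all features called higher and 70.9% called lower. Every tested member was called, and so were 99.8% of all tested features, so a call sets no member apart. Of the 20 untested members, 5 were higher and 15 lower by their means. Adjusted over all 58780 annotated genes, with those outside the table counted as not significant, 9 members were called higher and 27 lower, beside 19.4% and 54.3% of the features tested.

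The median log2 fold change of the tested members was -1.56, with quartiles of -2.13 and -1.02, beside -1.29 over all features tested, -1.28 over protein-coding genes and -1.47 over the antisense RNAs. Over all 80, with genes of few counts taken at their count ratio or bound, the median log2 ratio was -1.74. The level between the groups is set by the scaling. With TMM factors over the whole table, the median of all features moved up by 1.20 on the log2 scale, and 13 members were called higher and 14 lower, beside 28.9% and 19.4% of all features. Under that scaling 48.1% of the called LINC genes were called higher, against 21.7% here, and 9 of the 47 lower members had a log2 fold change above 0.

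LINC01819, on chromosome 2 of GRCh38 (43027853 to 43039547, minus strand), had the largest fold among members of more than 50 normalized counts on average. Replicates 1 to 3 of WT had 62, 73 and 39 counts, and those of CYGB-OE 670, 638 and 731, and all values below follow this order. All CYGB-OE libraries lay far above all WT libraries, and the 3 CYGB-OE values were close to each other. Its normalized count rose from 55.8 ± 13.5 to 697 ± 28.4 (log2 change of 3.64 with SE 0.19; adjusted p = 2.33e-06 in edgeR). The nearest protein-coding gene, ZFP36L2, lies 182855 bp away.

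LINC00665, on chromosome 19 (36313067 to 36331718, minus strand), was the most abundant member in CYGB-OE, and it is a transcript studied in several cancers and reported to encode a micropeptide. It had 1090, 1471 and 1104 counts in WT and 2140, 2183 and 2839 in CYGB-OE. The groups are apart, with little spread inside either. Its normalized count rose from 1178 ± 18.5 to 2433.5 ± 149, a log2 fold change of 1.05 (SE 0.10, with adjusted p = 1.96e-05 in edgeR), near the edge of the table's selection. The promoter windows of these transcripts are shown because they are the member with the largest abundant rise and the most abundant member that rose. Each runs from 250 bases before to 50 bases after the start site in RefSeq (GRCh38.p14), 5′ to 3′ on the gene's strand, at chr2:43039494-43039793 for LINC01819 and chr19:36331669-36331968 for LINC00665, both on the minus strand. Capitals mark a GC box, GGGCGG or its reverse complement CCGCCC.
LINC01819: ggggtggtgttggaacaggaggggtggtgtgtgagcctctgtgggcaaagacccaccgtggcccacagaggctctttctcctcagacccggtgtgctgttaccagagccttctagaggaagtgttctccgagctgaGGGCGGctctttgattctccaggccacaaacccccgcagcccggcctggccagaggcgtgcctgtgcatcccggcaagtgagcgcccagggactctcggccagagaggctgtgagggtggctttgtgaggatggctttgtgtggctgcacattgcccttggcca
LINC00665: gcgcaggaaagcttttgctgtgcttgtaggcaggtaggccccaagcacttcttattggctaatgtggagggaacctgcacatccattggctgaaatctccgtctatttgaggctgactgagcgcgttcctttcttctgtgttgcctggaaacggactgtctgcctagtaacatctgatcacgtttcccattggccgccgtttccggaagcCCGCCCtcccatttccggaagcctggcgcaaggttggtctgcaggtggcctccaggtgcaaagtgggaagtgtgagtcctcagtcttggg

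LINC00641 and LINC01963 were the other members called higher among the 10 most abundant ones tested. LINC00641, on chromosome 14 near HNRNPC, had 55, 132 and 84 counts in WT and 229, 182 and 216 in CYGB-OE. Its lowest CYGB-OE library lay above its highest WT library, and WT replicate 1 was the lowest of all. Its normalized count rose from 84.7 ± 22.3 to 215 ± 25.9 (log2 change of 1.33 with SE 0.22; adjusted p = 0.000490 in edgeR). LINC01963, on chromosome 2 near XRCC5, a gene of DNA end joining, had 75, 100 and 74 counts in WT and 181, 179 and 222 in CYGB-OE. It was among the members with the tightest replicates, at normalized counts of 80.1 ± 2.11 and 198 ± 4.57 (log2 change of 1.31 with SE 0.16; adjusted p = 7.07e-05 in edgeR). LINC01204, on chromosome X, was as tight at a lower level, with 10, 14 and 11 counts in WT and 44, 41 and 52 in CYGB-OE. Its normalized count rose from 11.3 ± 0.383 to 46.7 ± 0.775 (log2 change of 2.04 with SE 0.26; adjusted p = 9.93e-05 in edgeR).

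Other members with large folds upward had few counts in WT. LINC02452, on chromosome 12 near ELK3, had 0, 1 and 0 counts in WT and 10, 17 and 14 in CYGB-OE, and the groups are apart. Its level was 43.5-fold higher in CYGB-OE (95% exact interval 7.39 to 1761, which covers counting error only; edgeR adjusted p = 0.000209). Without WT replicate 2, WT held no count, and LINC02452 was at least 8.52-fold higher, taking 3 counts over the group as the floor. Such bounds, here and below, leave out the counting error of the group that held counts, so a full lower limit would be smaller. LINC02458, on the same chromosome, had 0, 3 and 1 counts in WT and 18, 29 and 44 in CYGB-OE. Its normalized count rose from 1.14 ± 1.19 to 30.5 ± 10.5 (log2 change of 4.46 with SE 0.60; adjusted p = 0.000146 in edgeR). Without WT replicate 2 its WT libraries held 1 count, and CYGB-OE exceeded WT 56.8-fold (9.93 to 2266).

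LINC02577 had 26, 24 and 19 counts in WT and 58, 96 and 63 in CYGB-OE, with a log2 fold change of 1.74 (SE 0.33, with adjusted p = 0.000991 in edgeR). LINC01363 had 34, 51 and 27 counts in WT and 116, 76 and 97 in CYGB-OE, with a log2 fold change of 1.47 (SE 0.25, with adjusted p = 0.000514 in edgeR). In both genes the lowest CYGB-OE value exceeded the highest WT value. LINC02535 had 6, 17 and 4 counts in WT and 27, 35 and 23 in CYGB-OE, and WT replicate 2 was the nearest to the CYGB-OE range. Its log2 fold change was 1.78 (SE 0.44, with adjusted p = 0.00374 in edgeR), and 2.40 without that library. Adjusted over all annotated genes, LINC02535 did not pass (edgeR adjusted p = 0.0891).

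LINC01366 was the one member of the 80 whose groups overlap; 98.3% of all features had groups that do not. It had 28, 33 and 21 counts in WT and 26, 76 and 65 in CYGB-OE. CYGB-OE replicate 1 lay inside the WT range and replicates 2 and 3 above it. Normalized counts were 26.4 ± 4.25 in WT and 57.2 ± 28.6 in CYGB-OE (log2 change of 1.11 with SE 0.40; adjusted p = 0.0227 in edgeR). The call did not hold with WT replicate 2, WT replicate 3 or CYGB-OE replicate 2 left out (adjusted p in edgeR of 0.0649, 0.0854 and 0.1001), nor when adjusted over all annotated genes (adjusted p = 0.540).

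**Figure D2:**
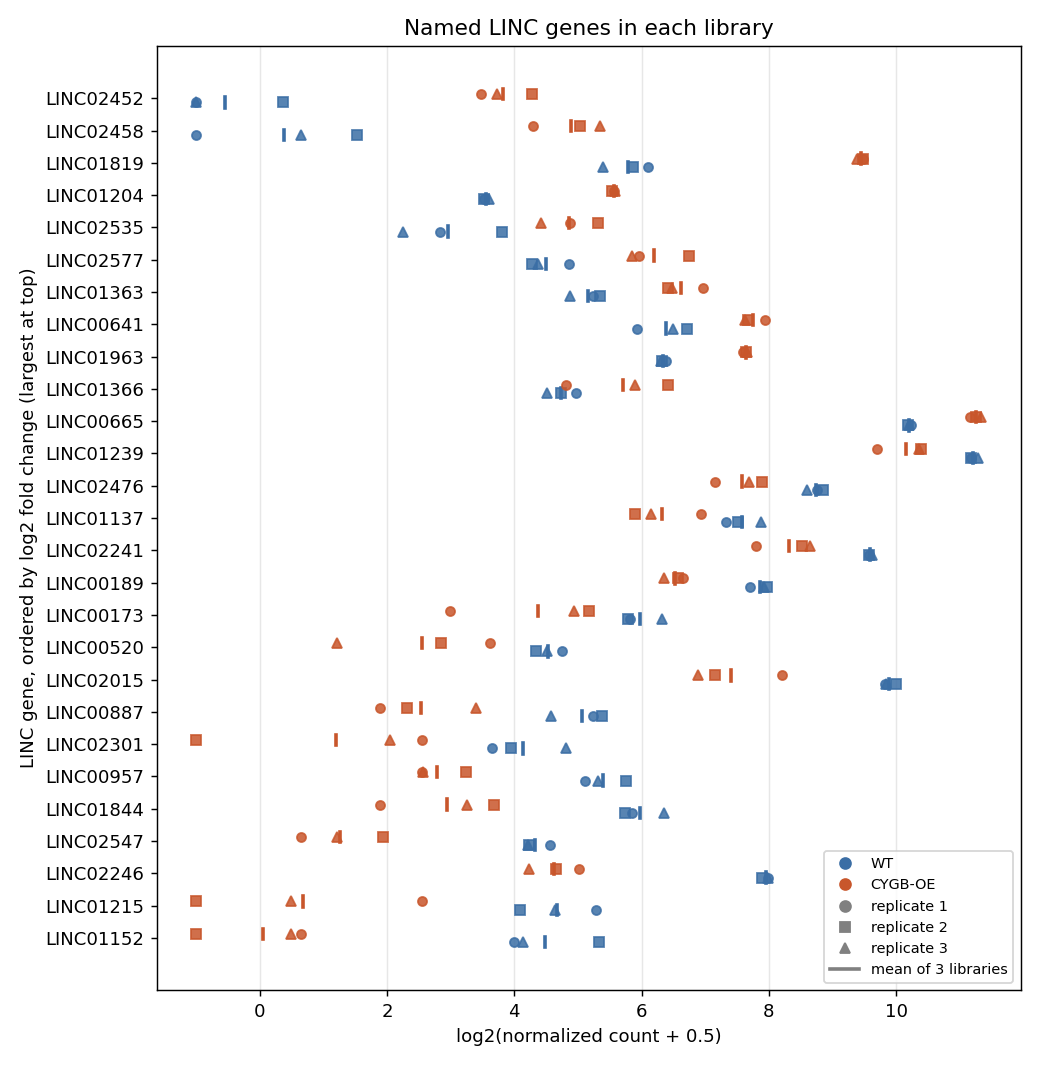
Each row is a named LINC gene and each point a library, at log2(normalized count + 0.5) on the horizontal axis; blue is WT, orange CYGB-OE, shapes are replicates and vertical strokes are means of the 3 plotted values. The groups are apart in every row but that of LINC01366; with scaling over the whole table the sign of LINC01239, LINC02476 and, with DESeq2 size factors, LINC01137 turns.

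LINC01239, on chromosome 9 (22646200 to 22824213, plus strand), was the most abundant member in WT. It had 2091, 2923 and 2333 counts in WT and 777, 1203 and 1447 in CYGB-OE. The groups are apart, and CYGB-OE replicate 1 was the lowest. Its normalized count fell from 2363 ± 101 to 1162 ± 289, a log2 fold change of -1.02 (SE 0.18, with adjusted p = 0.000567 in edgeR) that turned to 0.18 with TMM over the whole table. LINC02241, on chromosome 5 near the cadherin gene CDH18, had 691, 961 and 735 counts in WT and 208, 328 and 441 in CYGB-OE. CYGB-OE replicate 1 was again the lowest, and no library overlapped the other group. Its normalized count fell from 767 ± 12.4 to 329.6 ± 94.9 (log2 change of -1.22 with SE 0.20; adjusted p = 0.000462 in edgeR; -0.02 and no longer called with TMM over the whole table). LINC02476, on chromosome 7, had 392, 585 and 362 counts in WT and 133, 213 and 226 in CYGB-OE, without overlap. Its normalized count fell from 426 ± 39.1 to 195 ± 48.8, a log2 fold change of -1.13 (SE 0.20, with adjusted p = 0.000619 in edgeR) that turned to 0.070 with TMM over the whole table.

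LINC02015, on chromosome 3 (177816865 to 177899224, plus strand), lies 373708 bp from its nearest protein-coding gene, KCNMB2, and had the largest fold among the 5 most abundant members that were lower. It had 823, 1286 and 863 counts in WT and 275, 127 and 129 in CYGB-OE. Here CYGB-OE replicate 1 was the highest of its group, and every CYGB-OE library still lay far below WT. The normalized count fell from 946 ± 61.1 to 184 ± 95.4 (log2 change of -2.36 with SE 0.34; adjusted p = 0.000443 in edgeR). LINC02246, on chromosome 21 near NRIP1, had 231, 299 and 238 counts in WT and 30, 22 and 20 in CYGB-OE. The groups were far apart, and the CYGB-OE libraries varied more relative to their mean than those of WT. Its normalized count fell from 248 ± 9.93 to 24.9 ± 6.92 (log2 change of -3.32 with SE 0.23; adjusted p = 5.64e-06 in edgeR), the smallest adjusted p among the members that were lower. LINC00189, on chromosome 21, had 188, 315 and 228 counts in WT and 94, 85 and 89 in CYGB-OE. It fell from 233 ± 22.7 to 92.0 ± 10.0 normalized counts (log2 change of -1.34 with SE 0.17; adjusted p = 0.000105 in edgeR; -0.14 and no longer called with TMM over the whole table). It overlaps exons of BACH1, a transcription factor gene, on the same strand, so its reads may be shared with BACH1.

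The members with the largest folds downward held few counts in CYGB-OE. LINC01152, on chromosome 17, had 14, 50 and 16 counts in WT and 1, 0 and 1 in CYGB-OE. WT exceeded CYGB-OE 37.7-fold (95% exact interval 10.1 to 316; edgeR adjusted p = 0.000283), and 24.0-fold (6.10 to 208) without WT replicate 2, which was the highest. LINC01215, on chromosome 3, had 35, 21 and 23 counts in WT and 5, 0 and 1 in CYGB-OE, and most of the CYGB-OE counts came from replicate 1. Its normalized count fell from 26.5 ± 11.1 to 2.08 ± 2.85 (log2 change of -3.59 with SE 0.70; adjusted p = 0.00114 in edgeR). Without CYGB-OE replicate 1, that group held 1 count, and WT exceeded it 47.4-fold (8.27 to 1897).

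LINC02547 had 21, 23 and 17 counts in WT and 1, 3 and 2 in CYGB-OE, with a log2 fold change of -3.19 (SE 0.44, with adjusted p = 0.000153 in edgeR). LINC01844 had 52, 67 and 76 counts in WT and 3, 11 and 10 in CYGB-OE, with a log2 fold change of -2.94 (SE 0.41, with adjusted p = 0.000182 in edgeR). Both were low in all 3 CYGB-OE libraries and in no WT library. LINC00957 had 31, 68 and 37 counts in WT and 5, 8 and 6 in CYGB-OE, with a log2 fold change of -2.69 (SE 0.35, with adjusted p = 0.000122 in edgeR). LINC00887 had 34, 52 and 22 counts in WT and 3, 4 and 11 in CYGB-OE, where replicate 3 was the highest. Its log2 fold change was -2.47 (SE 0.44, with adjusted p = 0.000651 in edgeR), and -3.09 without that library. LINC02301 had 11, 19 and 26 counts in WT and 5, 0 and 4 in CYGB-OE, and its groups are apart. Its log2 fold change was -2.52 (SE 0.65, with adjusted p = 0.00465 in edgeR); it did not pass with TMM over the whole table (adjusted p = 0.142) or adjusted over all annotated genes (adjusted p = 0.111).

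The 33 tested members that the rule for naming left out were 2 higher ones, with log2 fold changes of 1.30 and 1.33, and 31 lower ones, from -2.46 for LINC00601 to the edge of the selection for LINC01843. Their mean normalized counts were between 10.6 and 126. Of the 20 untested members, 16 had counts in both groups. The 3 higher ones differed 6.77-fold (LINC02509, 95% exact interval 3.19 to 16.5; 12.1-fold, 3.90 to 60.4, without WT replicate 3) to 11.7-fold (LINC01068, 2.87 to 102), and the 13 lower ones 4.14-fold (LINC02453, 2.05 to 9.23) to 25.4-fold (LINC02051, 4.19 to 1041). Without WT replicate 2, LINC01068 differed 6.86-fold (1.69 to 60.2). LINC02051 differed 15.6-fold (2.57 to 638) without CYGB-OE replicate 3, and without CYGB-OE replicate 1 it had no count in that group and was at least 5.403-fold lower.

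The 4 members below, chosen after their values were seen, had no count in 1 group, and bounds for them take 3 counts over the group as the floor. The counts of the other group, which are few, enter these bounds as observed, without their counting error. LINC02531 had 5, 16 and 14 counts in WT and none in CYGB-OE, and was at least 11.0-fold lower there (at least 7.003-fold and 6.73-fold without CYGB-OE replicates 1 and 3). LINC00112 had 4, 4 and 6 counts in WT and none in CYGB-OE, and was at least 4.39-fold lower (2.801-fold and 2.69-fold without those replicates). LINC01563 had none in WT and 5, 5 and 8 in CYGB-OE, and LINC01704 none in WT and 5, 6 and 4 in CYGB-OE. For LINC01563 the level was at least 6.37-fold higher in CYGB-OE, and for LINC01704 at least 5.31-fold (with WT replicate 2 left out, at least 3.74-fold and 3.12-fold). Besides these, 12 members had 1 to 3 counts in a group, 9 of them in CYGB-OE and 3 in WT. The filter on low counts left out all 4, and without the filter all 4 were called (adjusted p in edgeR of 0.00124 to 0.00477). Of all 2778 features, 809 were then called higher and 1959 lower, so these calls set none of the 4 apart.

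A list of 27 LINC genes studied in melanoma or other cancers had 4 members in the table, LINC00665, LINC01137, LINC00173 and LINC00520. LINC00665 was called higher and the other 3 lower, with a median log2 fold change of -1.28 over the 4, beside -1.29 over all features tested. LINC01137, now named ZC3H12A-DT, had 146, 230 and 220 counts in WT and 114, 53 and 77 in CYGB-OE, and CYGB-OE replicate 1 came nearest to WT. Its normalized count fell from 192 ± 37.7 to 83.6 ± 33.4, a log2 fold change of -1.20 (SE 0.29, with adjusted p = 0.00314 in edgeR) that turned to 0.012 with DESeq2 size factors over the whole table and did not pass over all annotated genes (adjusted p = 0.0747). LINC00173 had 51, 69 and 75 counts in WT and 7, 32 and 33 in CYGB-OE, where replicate 1 was far below the others. Its log2 fold change was -1.37 (SE 0.46, with adjusted p = 0.0163 in edgeR), and the call was lost with TMM over the whole table (-0.17, adjusted p = 0.801), with DESeq2 size factors and upper-quartile factors (adjusted p = 0.798 and 0.317), when the table's total counts set the scale (adjusted p = 0.0596) and over all annotated genes (adjusted p = 0.387). LINC00520 had 24, 25 and 21 counts in WT and 11, 6 and 2 in CYGB-OE, without overlap. Its log2 fold change was -1.77 (SE 0.49, with adjusted p = 0.00646 in edgeR), -2.36 without CYGB-OE replicate 1. LINC00520 did not pass in edgeR with TMM over the whole table (-0.59, adjusted p = 0.394), DESeq2 size factors (0.408) or upper-quartile factors (0.1253), or over all annotated genes (adjusted p = 0.154).

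A second list held 42 long non-coding RNAs with names of their own, 10 of which are in the table. Of these, 2 were called higher and 8 lower, beside 28.9% and 70.9% of all features, with a median log2 fold change of -1.26 beside -1.29. The 2 were DANCR, at 1.20, and the imprinted H19, at 4.46. Among the 8 were SAMMSON and BANCR, lncRNAs known from melanoma, at -1.20 and -4.03, and NKILA, an inhibitor of NF-kB signalling, at -3.12. Without CYGB-OE replicate 1, BANCR was at -3.41 and NKILA at -4.68. With TMM over the whole table, BANCR and CASC15 were the only ones of the 8 still called lower, and the adjusted p in edgeR was 0.999 for SAMMSON, 0.0911 for NKILA, 0.210 for MIR210HG, 0.540 for EPB41L4A-AS1, 0.560 for UCA1 and 0.917 for HOTAIR. Other names are now also given to LINC genes: LINC02170 is ARLNC1, known from androgen receptor signalling, and LINC01759 is LNCTAM34A, transcribed antisense to the miR-34a host gene. Their log2 fold changes were -1.52 and -1.01. With TMM over the whole table neither was called (-0.33 and 0.19; adjusted p in edgeR of 0.512 and 0.634), nor with DESeq2 size factors, upper-quartile factors or adjusted over all annotated genes (adjusted p = 0.0624 and 0.138 in the last).

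The spread between replicates was larger in CYGB-OE, and less so without replicate 1. Over the 60 tested members, the median coefficient of variation was 16.8% in WT and 31.1% in CYGB-OE, beside 11.6% and 24.1% over all features tested. It was larger in CYGB-OE for 48 of the 60, or 80%, against 75.8% of all features. CYGB-OE replicates 2 and 3 alone had a median of 19.5%, where pairs with replicate 1 had 35.2% and 33.3% and pairs of WT libraries 11.2% to 15.6%. The pair of replicates 2 and 3 exceeded the value over the 3 WT libraries in 36 of the 60, beside 1150 of the 2468 features tested. Pairs of WT libraries exceeded it in 28, 36 and 29 of the 60. Each WT pair is part of the 3 libraries it is set against, and the CYGB-OE pair is not. The WT counts are therefore no independent baseline, and whether 36 stands out is not decided. Over all features, replicates 2 and 3 had 10.7% and pairs of WT libraries 8.72% to 9.22%. Of the 60, 47 had fewer counts in CYGB-OE, and a coefficient of variation grows as counts fall. In these 47 the medians were 15.5% in WT and 34.7% in CYGB-OE, larger in CYGB-OE for 42. Replicates 2 and 3 of CYGB-OE alone had 21.1%, and pairs of WT libraries 10.1% to 14.1%. Among the 13 higher members the medians over 3 libraries were 23.2% and 30.7%, larger in CYGB-OE for 6. For these 13, replicates 2 and 3 of CYGB-OE alone had 4.94%, and pairs of WT libraries 11.0% to 23.5%. The part of the lower counts in the spread was not tested. Part of the features can be compared at like mean abundance over the 6 libraries, which is not like abundance within CYGB-OE. In the lowest range below, the median log2 fold change was -1.76 for the LINC genes, beside -1.47 over all features. Between 10 and 50 mean normalized counts, the 37 LINC genes had medians of 22.2% in WT and 41.9% in CYGB-OE, beside 21.6% and 34.4% over all features. Between 50 and 200, the 16 LINC genes had 10.2% and 22.9%, beside 12.1% and 23.5%. The 6 members between 200 and 5000 had 5.36% in WT and 24.96% in CYGB-OE, beside 5.43% and 14.5%, and no difference between LINC genes and other features was tested. For CYGB-OE replicates 2 and 3 alone, the LINC genes of the 3 ranges had 28.4%, 10.6% and 5.65%, beside 21.4%, 12.04% and 4.45% over all features.

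**Figure D3:**
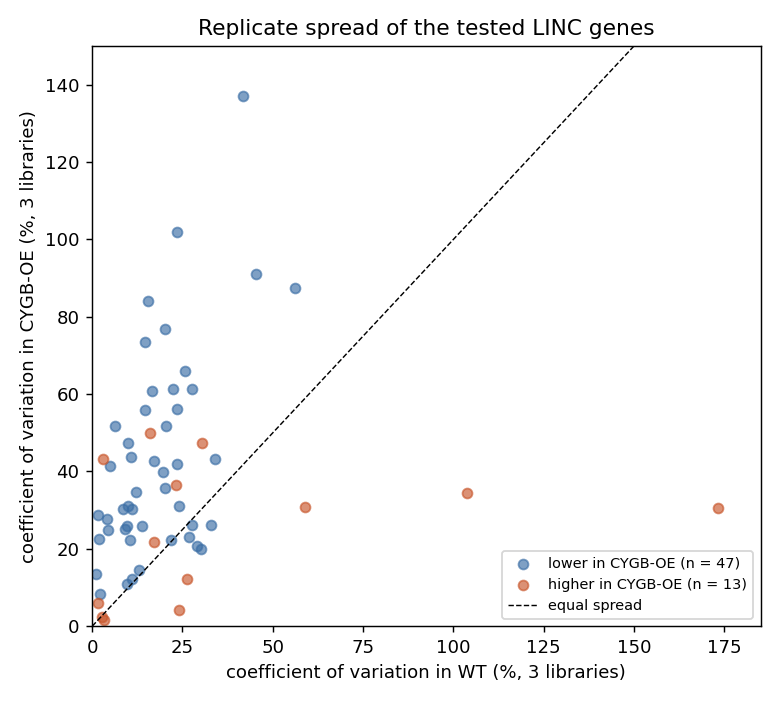
Coefficient of variation of the normalized counts over the 3 CYGB-OE libraries (vertical axis, %) against that over the 3 WT libraries (horizontal axis, %) for the 60 tested LINC genes, blue for the 47 lower and orange for the 13 higher in CYGB-OE; the dashed line marks equal spread. Most points, 48 of 60, lie above the line. Against the 3 WT libraries, CYGB-OE replicates 2 and 3 alone have a larger value in 36 of 60. Pairs of WT libraries, which are part of those 3, have one in 28, 36 and 29. Under TMM scaling of the table as a whole, 9 of the blue points have a fold change above 0.

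CYGB-OE replicate 1 was the highest or lowest of its group in 46 of the 60 tested members, or 76.7%, against 82.5% of all features tested. With 3 libraries a group, each would be the highest or lowest in most genes even if none were outlying. The share was not taken for replicates 2 and 3. Among the 47 lower members it was the lowest in 21 and the highest in 15, and among the 13 higher ones the highest in 5 and the lowest in 5. It was therefore not always on the side away from WT. Without it, all 60 calls held, and the median log2 fold change was -1.57 over the 69 members then tested. Leaving out that library moved LINC02251 from a log2 fold change of -1.76 to -2.59. LINC00898 and LINC01807 moved from -1.79 and -2.30 to -2.62 and -3.47 without CYGB-OE replicate 2, and LINC01843 lost its call without WT replicate 1 (edgeR adjusted p = 0.0583). These 4 were picked for this movement, and none of them was called with TMM over the whole table (LINC01843 at 0.20) or over all annotated genes.

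The members lie on 23 chromosomes, with 8 each on chromosomes 1 and 14 and 7 on chromosome 12. GENCODE 29 classes 72 of them as lincRNA (16 higher, 56 lower), 4 as antisense, 2 as processed transcript, 1 as sense overlapping and 1 as transcribed unitary pseudogene, so the intergenic name does not cover every member. The pseudogene is LINC00634, whose current symbol is SMIM45 and no longer a LINC name. Whether its RNA is non-coding was not examined here. Annotated exons cover 436 to 7201 bp a gene, with a median of 2035. The median distance to the nearest protein-coding gene is 28541 bp. No other annotated gene overlaps 50 of the 80, and only LINC00189 overlaps a protein-coding gene. Exon bases are shared with another gene in 21, of which 17 share them on the opposite strand and 7 on the same strand. No source used here gives the strand setting of the counting, so the counts of these 21 are uncertain. Without them, 11 members were called higher and 34 lower of 45 tested, beside 28.9% and 70.9% of all features, with a median log2 fold change of -1.52, beside -1.29.

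Within 100 kb of 18 members lay another gene of the table, in 23 pairs. Under the main scaling, both genes of a pair differed in the same direction in 21 of the 23. With TMM over the whole table the pairs were not counted, and some changed. LINC02081 and LINC01759 turned above 0, while their neighbours DNAH17 and H6PD were at -0.54 and -0.046. LINC01770, opposite to its neighbour under the main scaling, turned above 0 as well. No test was made, and 70.7% of all features were lower, so pairs with both genes lower are common in this table. LINC02246 shares exons on the same strand with AF127577.4, another lincRNA, which fell from 178 ± 11.4 to 42.9 ± 3.93 normalized counts (log2 change of -2.05 with SE 0.18; adjusted p = 1.68e-05 in edgeR), and reads of the pair cannot be told apart with certainty. LINC01963 lies 3526 bp from AC012513.3, which rose by 1.47 on the log2 scale (SE 0.18, with adjusted p = 8.02e-05 in edgeR). LINC00957 overlaps the pseudogene RASA4CP on the opposite strand (log2 fold change -1.41, SE 0.28; -0.22 and not called with TMM over the whole table, edgeR adjusted p = 0.591) and lies 20421 bp from PGAM2, the muscle phosphoglycerate mutase (-2.80, SE 0.28). LINC01152 lies 79723 bp from SOX9, a transcription factor of the neural crest and cartilage, whose normalized count fell from 61.3 ± 18.9 to 28.9 ± 5.77 (log2 change of -1.08 with SE 0.31; adjusted p = 0.00728 in edgeR; 0.11 with TMM over the whole table).

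LINC01137 and ZC3H12A, which encodes an endoribonuclease that degrades inflammatory messenger RNAs, are transcribed away from each other on chromosome 1. Their annotated ends lie 141 bp apart. ZC3H12A had 1692, 2350 and 1615 counts in WT and 837, 216 and 269 in CYGB-OE, where replicate 1 was the highest. It fell from 1812 ± 82.3 to 459.5 ± 375.3 normalized counts (log2 change of -1.98 with SE 0.53; adjusted p = 0.00963 in edgeR), and without CYGB-OE replicate 1 the log2 change was -2.80. ZC3H12A did not pass with TMM over the whole table (log2 change -0.78, adjusted p = 0.283) or over all annotated genes (adjusted p = 0.229). On the other side of LINC01137, at 82508 bp, DNALI1, of the axonemal dynein, had a log2 fold change of -1.08 (SE 0.30, with adjusted p = 0.00674 in edgeR), which turned to 0.11 with TMM over the whole table. The stretch between the pair is shown because both genes start in it. It is the RefSeq window of ZC3H12A (GRCh38.p14, chr1:37474330-37474629, plus strand), in which LINC01137 starts at base 82 and runs to the left. Capitals mark GC boxes, GGGCGG or CCGCCC, and a TATA box, TATAAA.
ZC3H12A: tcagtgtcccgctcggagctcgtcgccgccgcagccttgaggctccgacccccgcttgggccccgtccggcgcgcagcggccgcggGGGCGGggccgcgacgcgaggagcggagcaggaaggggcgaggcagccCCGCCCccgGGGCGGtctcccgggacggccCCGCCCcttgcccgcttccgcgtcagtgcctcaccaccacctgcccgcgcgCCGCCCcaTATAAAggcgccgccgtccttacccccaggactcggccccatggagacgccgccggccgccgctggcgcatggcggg

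Among pairs outside the named members, LINC02251 lies 29243 bp from ARRDC4, an arrestin-domain gene (log2 fold change -2.78), and LINC00601 3118 bp from C10orf90 (-2.77). LINC01764 overlaps UCA1, a lncRNA known from bladder cancer, on the opposite strand. UCA1 had a log2 fold change of -1.08, which turned to 0.12 with TMM over the whole table. In both exceptions to the shared direction the LINC gene was the lower one. LINC01219 had 9, 8 and 9 counts in WT and 0, 0 and 1 in CYGB-OE, a 24.5-fold difference (95% exact interval 4.02 to 1004). It was 15.6-fold (2.56 to 639.9) without CYGB-OE replicate 1, and without replicate 3 that group held no count and LINC01219 was at least 5.003-fold lower. H19, 1506 bp away, had 2, 1 and 1 counts in WT and 10, 28 and 55 in CYGB-OE. LINC01770 had a log2 fold change of -1.07, which rose above 0 with TMM over the whole table, and AL645728.2, at 68677 bp, one of 1.70.

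**Figure D4:**
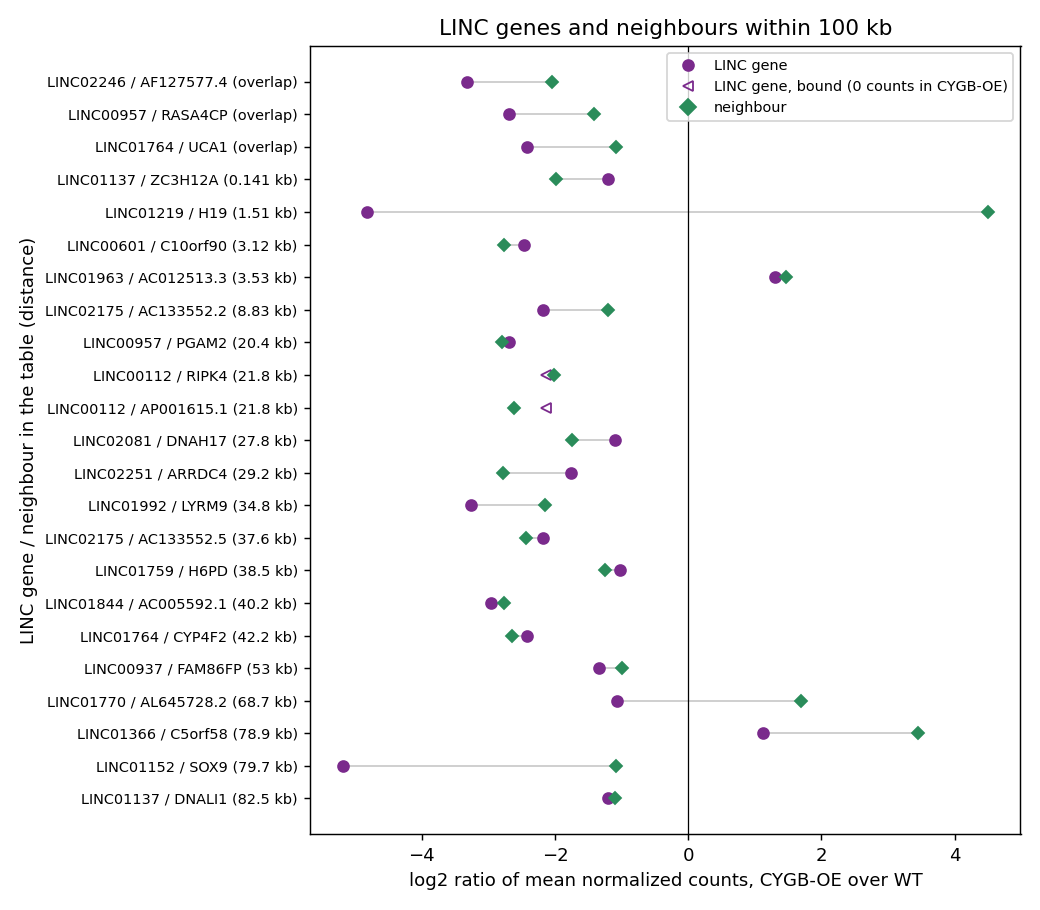
Log2 ratio of mean normalized counts, CYGB-OE over WT (horizontal axis), for each LINC gene (purple) and the gene of the table that overlaps it or lies within 100 kb (green), 1 row for each of 23 pairs ordered by distance; open triangles are bounds for LINC00112, which had no count in CYGB-OE. In 21 pairs both symbols lie on the same side of zero under the main scaling. With TMM over the whole table all ratios move up by about 1.20. That takes those just left of zero across it, and some pairs then no longer share a side.

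Promoter windows of 52 members were found in RefSeq, 11 of higher and 41 of lower genes, beside 27305 genes in all. Their median GC content was 52.7%, against 58.7% over all windows. Both strands were searched for 6 short motifs. The AP-1 motif TGANTCA was in the windows of 12 of the 52 members, or 23.1%, against 9.37% of all genes, and 4 of the 12 belonged to members that were higher. The GC box GGGCGG was in 17, or 32.7%, against 48.3%. The TATA box TATAAA was in 7, or 13.5%, against 13.99%, and the E-box CACGTG, a sequence that the melanocyte factor MITF binds, in 5, or 9.62%, against 8.77%. A motif of NF-kB and the cAMP response element TGACGTCA were in none, against 0.678% and 2.25% of all genes. Most windows lay at or near the start site that GENCODE gives for the gene, but not all. The offset was 133724 bp for LINC02531, 54842 bp for LINC01060 and 6289 bp for LINC01704. LINC01992, among the 12 with the AP-1 motif, had only a window at -17484 bp. LINC02535, also among the 12, had windows at -14616 and 0 bp. Far windows may not be promoters of the RNA counted, and shares without them were not taken. The motif counts are matches of letters and show no binding. Of the 8 named members with the largest folds downward, LINC02246, LINC02547 and LINC02301 had no window and were not searched. The window of LINC01215 (chr3:108125571-108125870, plus strand) is shown as the one with an AP-1 match, in capitals, among the others.
LINC01215: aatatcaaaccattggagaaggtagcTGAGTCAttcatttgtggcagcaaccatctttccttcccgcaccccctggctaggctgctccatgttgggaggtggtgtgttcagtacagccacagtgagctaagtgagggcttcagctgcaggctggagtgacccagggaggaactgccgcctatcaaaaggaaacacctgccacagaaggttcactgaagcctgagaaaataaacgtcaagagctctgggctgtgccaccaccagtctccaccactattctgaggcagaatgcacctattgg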

How the data were processed

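RNA was captured on oligo-dT beads, per the labels' protocols. The submitters' processing notes name STAR 2.5.2b and Trimmomatic 0.36, Subread 1.5.2 and its featureCounts, and GRCh38 as the build. For the annotation, the strand setting and the rule of selection, nothing is given in the sources used here. The deposited table holds raw counts per feature for 6 libraries, per the file headers.

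Members and lists were chosen with earlier results of these data known. Counts of all 2778 features were fitted with edgeR 4.0.16 (R 4.3.3): quasi-likelihood F test, two-sided, robust, group as the only term, filterByExpr with a minimum count of 10, adjusted p (Benjamini-Hochberg over all features tested) under 0.05. The log2 ratios of group means left an empty band from -1.07 to 0.92. Libraries were scaled by TMM inside each group, and the groups were levelled at the middle of the band. Standard errors come from the F statistic. The biological coefficient of variation was 20.5% from a common dispersion. Ratios with 1 to 3 counts in a group have exact binomial intervals (95%), and bounds against 0 use a floor of 3 counts. Intervals cover counting error only. Floors cover the counting error of the group with 0 counts and leave out that of the other group. Tests were checked on simulated data in which most features did not change and the scaling was known. That check does not bear on the level between the groups.

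Named are the 10 most abundant tested members, the 8 with the largest fold in each direction, members with overlapping groups, members of the cancer list, and table genes overlapping or within 100 kb of the first 2 kinds; others were named after their values were seen. Positions and types come from GENCODE 29 (GRCh38), in which all 80 identifiers were found, and promoter windows from RefSeq (GRCh38.p14). Alternatives were other scalings, filters and tests (DESeq2 1.42.0, limma-voom with limma 3.58.1), another prior count, each library left out, a replicate block and adjustment over 58780 genes. Without a library, the groups were levelled on features with a mean normalized count of at least 100, a step chosen after seeing the data.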

Additional observations from a re-analysis of the deposited data

How the results depend on the processing

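The level between the groups decided the count of lower LINC genes. It was 47 in the main analysis, 14 with TMM or DESeq2 size factors over the whole table and 21 with upper-quartile factors. The median log2 fold change of the tested members was then -0.37, -0.36 and -0.70. Of all features, 480, 476 and 910 were called lower. These scalings moved the median of all features by 1.20, 1.20 and 0.86 on the log2 scale. LINC01239 turned to 0.18 and LINC02476 to 0.070 and 0.074 with TMM and DESeq2 size factors, and LINC01137 to 0.012 with DESeq2 size factors. With a minimum count of 50, 26 members were tested, of which 7 were called higher and 19 lower, and of all features 444 and 1162 were. Adjusted over all annotated genes, 27 members were called lower. No call was lost with the DESeq2 test, limma-voom, the non-robust fit or a prior count of 2. Without the filter on low counts, all 80 members were called, 18 higher and 62 lower, and of all 2778 features 809 and 1959 were. Leaving out a library gave a median of -1.57 to -1.76, over the 62 to 69 members then tested, and cost at most 1 of the 60 calls. The replicate block also gave 13 higher and 47 lower, with a median of -1.59. Same-numbered libraries did not deviate together (correlations of 0.02, -0.01 and 0.01 over 1114 features). With 3 libraries a group and CYGB-OE replicate 1 apart, a small shared effect would not show. Whether the numbers pair the libraries is therefore not decided. Leaving out members that share exon bases, chosen after seeing the data, gave 11 higher and 34 lower of 45 tested. The table holds no unchanged genes, so no alternative can place the level between groups, and the main analysis tested none of the 20 members that its filter on low counts left out.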
